A study of Mus musculus with 10 samples.

Results

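The 9 transcription factor genes described here, Otx2, Mitf, Tfec, Pax6, Lhx2, Rax, Six3, Six6 and Crx, were chosen by name as regulators of the early eye field and of the retinal pigment epithelium (RPE), and all 9 were found among the 26360 genes listed. They were followed across 10 RNA sequencing libraries from the back of the eye of 5 wild-type C57BL/6J mice at postnatal day 34, with 1 left-eye and 1 right-eye library per animal. A lens of -20 D, which induces myopia, was worn for 10 days, starting at postnatal day 24, on a single eye of each animal. The sources used here do not tell the lens-wearing side. The groups are therefore left eyes (n = 5) and right eyes (n = 5), and a difference between them carries no treatment direction. The animals are called 61, 64, 65, 66 and 68 after the library titles. Levels are in CPM, the reads of a gene scaled to a fixed library total. They are relative, so a gain by some transcripts is a loss for the rest.

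As background, the neural retina and the RPE arise from the same cells of the optic vesicle. Pax6, Rax, Lhx2, Six3 and Six6 encode homeodomain proteins that specify the eye field. Otx2 and the basic helix-loop-helix leucine zipper factor Mitf then direct cells to the pigmented fate, while Otx2 and its relative Crx drive photoreceptor genes in the retina. In the adult eye Otx2 and Mitf stay on in the RPE, Mitf is also made by choroidal melanocytes, Pax6 is kept in the inner retina, the ciliary epithelium, the lens and the cornea, and Crx marks photoreceptors.

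The labelled tissue is RPE, choroid and sclera, and the defining genes of these layers were present in each library. The 10 RPE markers not made by melanocytes summed to 5132 to 7087 CPM, 9 scleral genes to 6702 to 9765 CPM and 7 endothelial genes to 264 to 360 CPM. Genes of neighbouring tissue were present as well, led by 8 skeletal muscle markers at 1844 to 8529 CPM. The 14 rod markers summed to 181 to 2259 CPM with no gene at 0 in all libraries, lowest in the right eye of animal 61 and highest in the right eye of animal 68. The 12 surface epithelium markers summed to 119 to 911 CPM, the 14 lens markers to 152 to 1065 CPM and the 5 ciliary and iris markers to 56.4 to 144 CPM, again with no gene at 0 in all libraries. Among markers of inner retinal neurons, 2 of 9 for bipolar cells and 8 of 17 for amacrine, horizontal and ganglion cells had a mean of at least 1 CPM. The extraction protocol of the labels speaks of retinae, so what was handled is not certain. In such bulk libraries fewer cells of a type and less RNA per cell cannot be told apart.

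The promoters printed here are start regions with a match to a core sequence named below. They belong to Crx, Otx2 and Mitf, the only members with such a match. They come from RefSeq on GRCm38.p6, run from 250 bases before to 50 bases after an annotated start, and read 5′ to 3′ on the strand of the gene. RefSeq entries were at hand for 8 of the 9 members, with 15 start regions in all. Capitals mark GGATTA, the core bound by Otx2 and Crx, and TAATTA, a core bound by homeodomains such as that of Lhx2, searched on both strands (reverse complements TAATCC and TAATTA), and no match overlapped another.
Crx, chr7:15879906-15880205, minus strand: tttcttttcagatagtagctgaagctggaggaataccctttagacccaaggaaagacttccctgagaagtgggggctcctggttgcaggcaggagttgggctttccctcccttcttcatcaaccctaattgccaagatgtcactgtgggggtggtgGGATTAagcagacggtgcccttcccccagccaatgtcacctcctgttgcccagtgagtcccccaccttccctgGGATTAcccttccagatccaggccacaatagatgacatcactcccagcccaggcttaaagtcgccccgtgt
Otx2, the third annotated start, chr14:48665060-48665359, minus strand: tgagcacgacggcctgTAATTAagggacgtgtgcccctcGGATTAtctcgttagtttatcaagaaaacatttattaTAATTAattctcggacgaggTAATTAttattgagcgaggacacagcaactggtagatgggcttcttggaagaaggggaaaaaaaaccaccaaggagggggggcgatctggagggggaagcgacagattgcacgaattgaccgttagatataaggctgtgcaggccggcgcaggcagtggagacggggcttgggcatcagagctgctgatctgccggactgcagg
Mitf, the second annotated start, chr6:97929567-97929866, plus strand: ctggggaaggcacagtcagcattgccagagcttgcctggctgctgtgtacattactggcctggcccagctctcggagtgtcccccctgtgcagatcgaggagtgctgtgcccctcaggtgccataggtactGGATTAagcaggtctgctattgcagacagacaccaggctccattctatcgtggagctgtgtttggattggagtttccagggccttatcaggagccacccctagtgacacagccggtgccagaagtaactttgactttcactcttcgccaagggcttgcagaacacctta
Mitf, the third annotated start, chr6:97991533-97991832, plus strand: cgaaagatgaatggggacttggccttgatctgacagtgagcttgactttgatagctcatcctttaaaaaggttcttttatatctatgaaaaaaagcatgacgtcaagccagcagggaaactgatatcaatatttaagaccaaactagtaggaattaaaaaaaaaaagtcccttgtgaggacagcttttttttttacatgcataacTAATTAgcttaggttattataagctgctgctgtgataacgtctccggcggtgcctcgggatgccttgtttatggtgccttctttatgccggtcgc
The Crx promoter held GGATTA at 2 places, beginning 94 and 21 bases before the start, and the Otx2 region held it once beside 3 copies of TAATTA. Of the 15 start regions 3 held GGATTA and 3 held TAATTA, against 7.06% and 5.29% of 32851 regions of the same length. The M-box core TCATGTG and the E-box CACGTG, both bound by Mitf and its relatives, were in 0 of the 15 regions, against 3.77% and 7.15% of the 32851 regions. A match describes letters in the window and shows no binding. Counts were deposited per gene, so the use of the 4 Otx2 starts or the 3 Mitf starts was not measured.

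Divided by exon length so that genes could be ranked, Otx2 and Mitf had the highest means of the members. Otx2 was at 23.0 ± 1.99 CPM per kilobase (SD over 10 libraries, exons of 4221 bases) and Mitf at 16.6 ± 3.31 CPM per kilobase (6196 bases). Their ranges overlapped, yet Otx2 was the higher of the pair in 10 of 10 libraries. Pax6 followed at 6.10 ± 2.003 CPM per kilobase, with a range that did not reach that of Mitf, and Crx at 4.26 ± 4.24 CPM per kilobase. In the right eye of animal 68 Crx reached 14.98 CPM per kilobase, level with Mitf at 14.96 in the same library. Lhx2 (1.75 ± 0.287), Six3 (1.13 ± 0.151) and Rax (1.097 ± 0.433 CPM per kilobase) formed a low group, in which Six3 exceeded Rax in 5 of 10 libraries, so these neighbours did not differ beyond their spread. Six6 (0.540 ± 0.228) and Tfec (0.110 ± 0.0409 CPM per kilobase) were the lowest, and Six6 was above Tfec in 10 of 10 libraries. Pax6 was under Crx in 1 library, the right eye of animal 68, and Crx was above Lhx2 in 8. Lhx2 was above Six3, and Rax above Six6, in 10 of 10 libraries although their ranges overlapped. Parts of this order rest on the length used, here all exons of a gene. Per kilobase of the longest coding transcript Pax6 was at 16.1 against 21.1 CPM for Mitf, and Rax (2.76) lay beside Lhx2 (2.71) and above Six3 (1.67 CPM per kilobase).

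**Figure D1:**
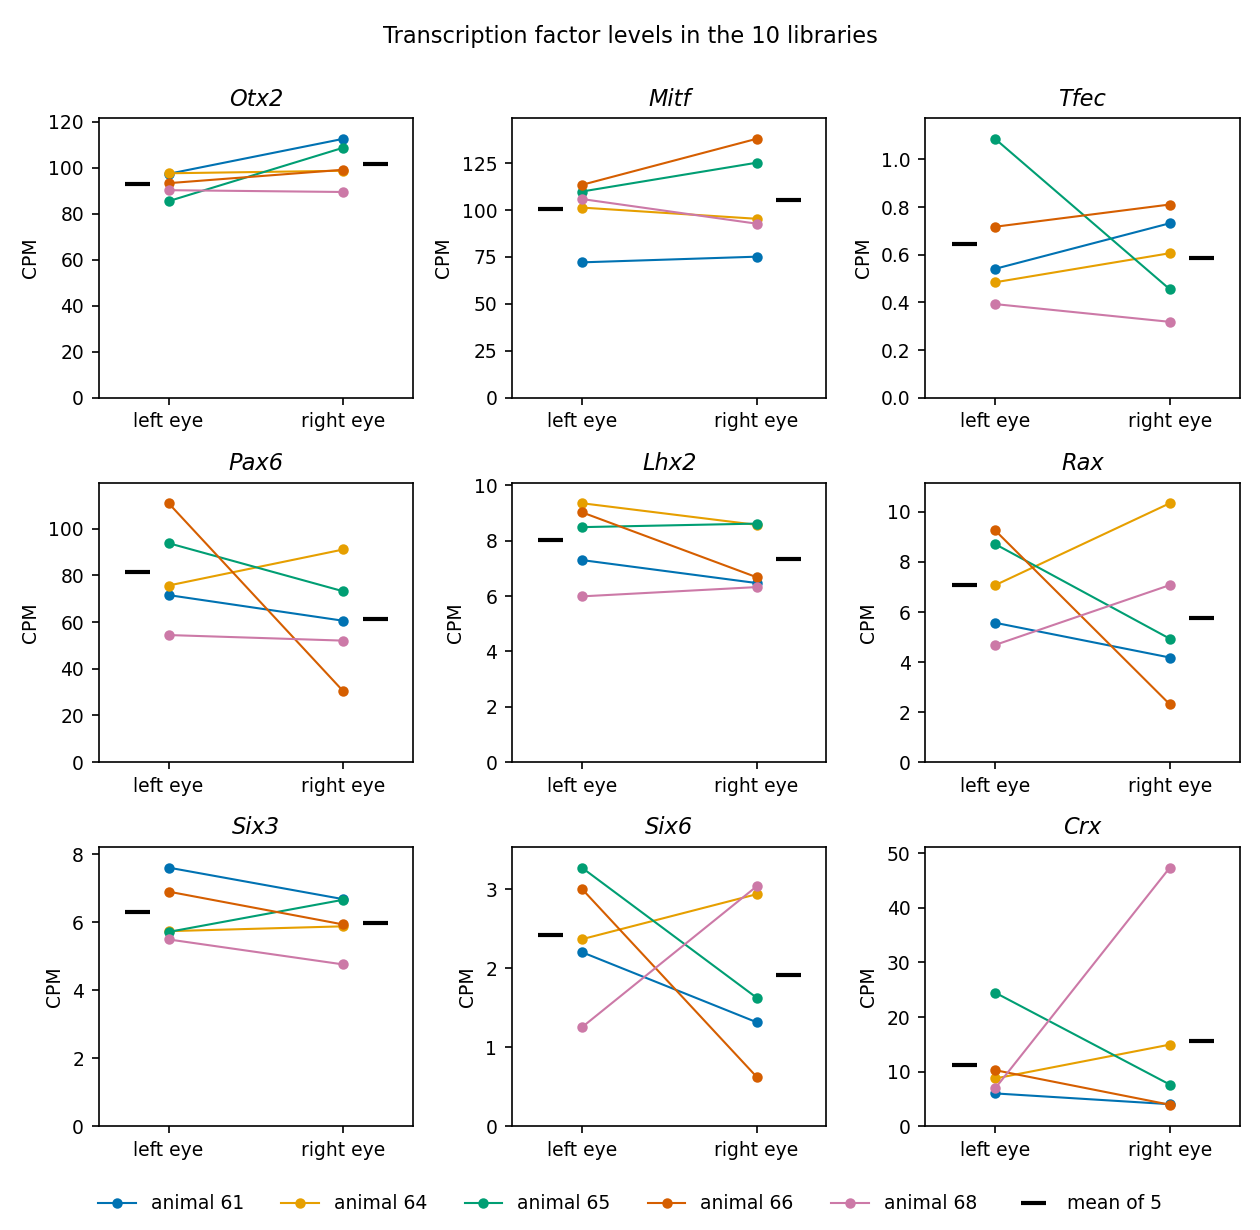
Level of each of the 9 genes in CPM (vertical axis, from 0) in the left-eye and right-eye library of each animal. Lines join fellow eyes and black dashes are means of 5 libraries; Otx2 stays between 85.5 and 113 CPM, while Crx runs from 3.97 to 47.3 CPM.

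No member differed between the eyes by the test. Each gene was tested as log2(CPM + 0.230) by limma, blocked on the animal so that fellow eyes are compared, and p-values were adjusted over all 15414 genes that averaged 1 CPM or more. Of these genes 0% were called at an adjusted p of 0.05, and of the 8 members tested 0 were called (adjusted p = 0.9998 for each in limma). Before adjustment, limma gave a p under 0.05 for 430 genes, or 2.79%, and for 0 of the 8 members. Tfec, with a mean of 0.614 CPM, entered only the fit without a filter on low values and was not called there (limma adjusted p = 0.9999). Of the 8 members tested 2 were higher and 6 lower in the right eye, with a median difference of -0.10 on the log2 scale, beside 7094 higher, 8320 lower and a median of -0.01 over all genes tested. None of the 9 moved the same way in 5 of 5 animals, which 4.44% of all genes tested did.

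The precision of this comparison differed widely between members. The 95% interval was narrowest for Otx2, from -0.02 to 0.28, so a 1.21-fold higher level in the right eye was the largest inside it. For Mitf it ran from -0.13 to 0.23, for Lhx2 from -0.33 to 0.08 and for Six3 from -0.28 to 0.14. The interval of Tfec, from -0.59 to 0.41, came from the fit without a filter. For Pax6 (-1.099 to 0.20), Rax (-1.21 to 0.42), Six6 (-1.35 to 0.53) and Crx (-1.40 to 1.39) a 2-fold lower level in the right eye lay within the interval, and for Crx a 2-fold higher level did too.

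**Figure D2:**
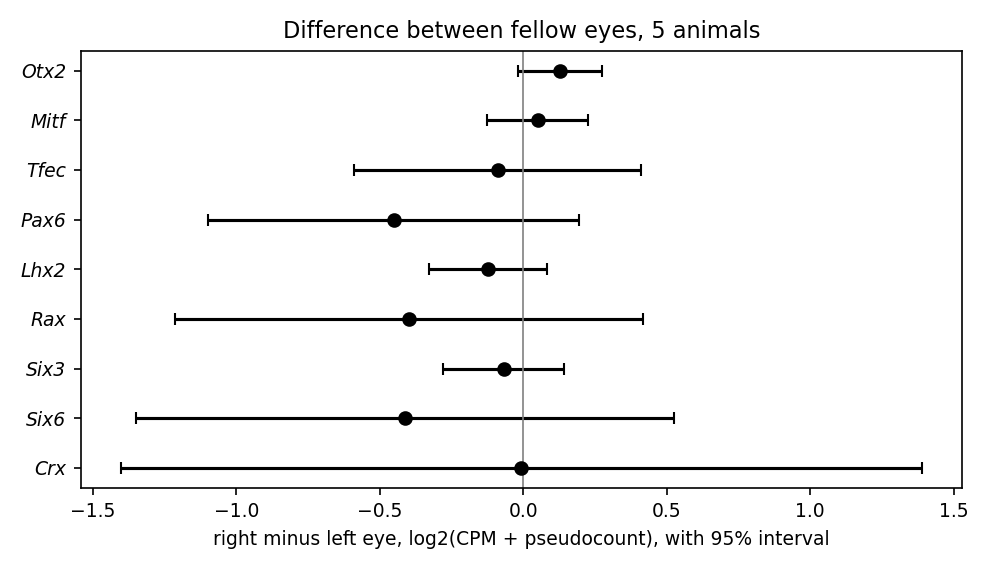
Right minus left difference of each gene on the log2(CPM + pseudocount) scale (horizontal axis), with the 95% interval from limma blocked on the animal (5 animals; Tfec from the fit without a filter). Each interval includes 0, and the interval of Crx is the widest, from -1.40 to 1.39.

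Otx2, the homeodomain factor needed to form and keep the RPE (chromosome 14, 48657677 to 48673819, minus strand, GRCm38), was the steadiest member. In the left eyes of animals 61, 64, 65, 66 and 68 it stood at 97.3, 97.6, 85.5, 93.3 and 90.2 CPM. In the right eyes of the same animals it stood at 113, 98.7, 109, 99.1 and 89.5 CPM. The right eyes of animals 61 and 65 were the highest of the 10 libraries, and the sides overlapped. The mean was 92.8 ± 5.10 CPM on the left against 102 ± 9.13 CPM on the right (SD, n = 5 a side), a log2 difference of 0.13 ± 0.06 (SE), higher in the right eye in 4 of 5 animals (limma adjusted p = 0.9998) and 0.0751 without animal 65. Its coefficient of variation over the 10 libraries was 8.65%, close to the median of 7.50% among 826 genes within 1.5-fold of its mean level.

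Otx2 levels followed those of RPE genes across the libraries. Its correlation with the mean log2 level of the 9 RPE markers tested was 0.81 over 10 libraries, 0.88 without the 2 libraries farthest from the median and 0.67 without animal 65, and all 9 markers had a positive r. These and the other correlations given are descriptions over 10 libraries from only 5 animals, which share one CPM total each. Over all genes tested r with Otx2 was positive for 9431 of 15413. Markers of one list can rise and fall together, so a count of positive or negative markers is not a count of separate observations. In the left eye of animal 65 both Otx2 and the RPE list were at their lowest. The ratio of Otx2 to the summed list varied 1.32-fold, no less than Otx2 itself. All 9 RPE markers tested were higher in the right eye, as Otx2 was, at a median log2 difference of 0.19, with 0 called by limma and 0 at an unadjusted p under 0.05. Rpe65, the isomerase of the visual cycle, stood at 721 ± 70.3 CPM on the left against 833 ± 119 CPM on the right (SD, n = 5 a side). The 7 endothelial markers were as like it (median r = 0.72, against 0.71 for RPE). Otx2 ran opposite to all 14 rod markers (median r = -0.65), although Otx2 is also made by photoreceptors. The genes most like Otx2 were Phkg2, Ndufa4l2 and Chil1 (r = 0.954, 0.949 and 0.948 over 10 libraries), the highest of 15413. An antisense RNA, Otx2os1, overlaps Otx2 by 5112 bases and was at 9.72 ± 0.804 CPM over the 10 libraries. The counting is not stated to use strand, so reads in that overlap are uncertain for both genes.

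Mitf, the master regulator of pigment cells, separated the animals more than the eyes. In left eyes it stood at 72.1, 101, 109.8, 113 and 106 CPM in animals 61, 64, 65, 66 and 68. The right eyes had 75.1, 95.3, 125, 138 and 92.7 CPM. Both eyes of animal 61 were the lowest of the 10 libraries, and animals 65 and 66 held the 4 highest. The gene (chromosome 6, 97807052 to 98021349, plus strand) had a mean of 101 ± 16.5 CPM on the left against 105 ± 25.6 CPM on the right (SD, n = 5 a side), a log2 difference of 0.05 ± 0.07 (SE), higher in the right eye in 3 of 5 animals (limma adjusted p = 0.9998). Without animal 66 the estimate was -0.01.

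On the log2 scale the animal means of Mitf had an SD of 0.30, and the spread between fellow eyes was 0.14. This ratio of 2.16 was the highest of the 9 members, and the animal SD exceeded the fellow-eye spread in 32.8% of all genes tested. Lhx2 (ratio 1.58) and Six3 (1.29) also differed more between animals than between fellow eyes. For Pax6, Rax and Six6 the reverse held, with ratios of 0.501, 0.472 and 0.376. Crx (0.600), Otx2 (0.749) and Tfec (0.839) also had the larger spread between fellow eyes. The fellow-eye spread is the SD of right minus left, scaled to a single eye, while an animal mean averages both eyes. A gene without animal differences would thus tend to a ratio under equal spread.

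**Figure D3:**
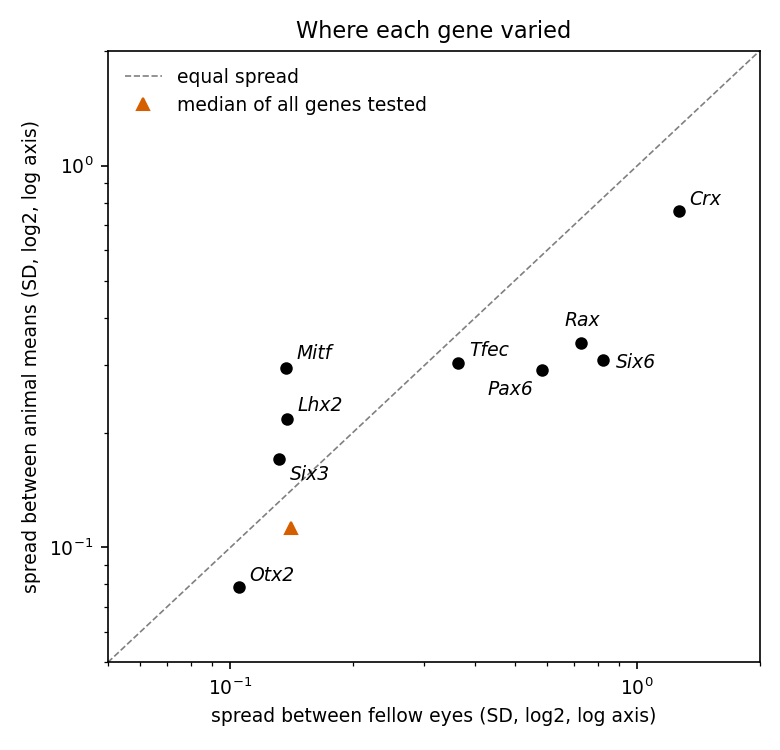
Spread of each gene between fellow eyes (horizontal) and between the 5 animal means (vertical), both as SD of log2 values on log axes; the dashed line marks equal spread and the triangle the median of all 15414 genes tested. Mitf, Lhx2 and Six3 lie above the line, while Pax6, Rax, Six6 and Crx lie below it at large fellow-eye spread. A gene without animal differences would tend to lie below the line, because an animal mean averages both eyes.

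Mitf varied more than the summed pigment cell markers, but a sum evens out the spread of single genes. The 11 melanocyte markers summed to 3735 to 4953 CPM, a 1.33-fold range, while Mitf varied 1.91-fold, and its correlation with the mean of the 10 markers tested was 0.13 over 10 libraries and -0.52 without the 2 farthest. With 1 animal left out it lay between -0.12 and 0.58. Dct, Tyrp1, Pmel, Tyr, Trpm1 and Mlana of this list are also on the list of RPE and pigment genes described below. Dct (mean 1527 CPM over the 10 libraries) and Tyrp1 (1126 CPM) lead the sum, so it does not measure melanocytes alone. Kit and Sox10, a receptor and a transcription factor of melanocytes, stood at 21.8 and 19.6 CPM in the left and 23.4 and 25.3 CPM in the right eye of animal 61, where Mitf was lowest. Over the 10 libraries Kit averaged 20.2 CPM and Sox10 23.9 CPM. Sox10 was thus below its mean in the left eye of animal 61 and above it in the right, and Kit was above its mean in both. The coefficient of variation was 19.0% for Sox10 and 10.6% for Kit, against 19.9% for Mitf. The highest likeness among the marker lists was to lens genes, with a positive r for 14 of 14 and a median r of 0.77. Over all genes tested r with Mitf was positive for 7298 of 15413, at a median of -0.02. Both lens and Mitf levels were low in both eyes of animal 61, where the lens list summed to 152 and 179 CPM, against 258 to 1065 CPM in the other libraries. Without animal 61 the correlation with the lens list mean was 0.44, and without the 2 farthest libraries it was 0.62. The part of lens RNA in the Mitf level was not tested. The genes most like Mitf were Gmds, Map3k10 and Ak5 (r = 0.951, 0.941 and 0.915 over 10 libraries). Of 15413 genes only 4 had an r above 0.9 with Mitf, against 288 with Crx.

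The relatives of Mitf that bind the same DNA letters were measured alongside. Tfec, which is expressed in RPE and in macrophages (minus strand of chromosome 6, 16833373 to 16898441), had 0.541, 0.484, 1.09, 0.717 and 0.393 CPM in the left eyes of animals 61, 64, 65, 66 and 68. In right eyes it was at 0.732, 0.606, 0.455, 0.811 and 0.318 CPM. The left eye of animal 65 was the highest and the right eye of animal 68 the lowest, and the sides overlapped. These values correspond to about 29.9 to 90.8 implied reads per library, above the floor of 3 reads but few enough that counting error matters. Its log2 difference was -0.09 ± 0.22 (SE) in the fit without a filter. Tfe3 and Tfeb, broadly expressed regulators of lysosomal genes, were steadier at 14.2 ± 1.31 and 11.8 ± 1.16 CPM (SD, n = 10). Per kilobase of exon Tfeb was at 2.07 and Tfe3 at 1.53 CPM, far under Mitf and far above Tfec.

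Pax6, the paired-box factor at the head of the eye programme, varied 3.66-fold across libraries. In left eyes it stood at 71.5, 75.6, 93.8, 111 and 54.4 CPM in animals 61, 64, 65, 66 and 68. The right eyes of these animals had 60.5, 91.1, 73.1, 30.3 and 52.0 CPM. Animal 66 held both the highest level, in its left eye, and the lowest, in its right eye. Pax6 (chromosome 2, 105668900 to 105697364, plus strand) averaged 81.2 ± 21.7 CPM on the left against 61.4 ± 22.8 CPM on the right (SD, n = 5 a side), a log2 difference of -0.45 ± 0.28 (SE), lower in the right eye in 4 of 5 animals (limma adjusted p = 0.9998). Without animal 66 the difference was -0.10, with the same direction. Its coefficient of variation of 32.8% was larger than that of 97.4% of 1237 genes within 1.5-fold of its level.

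Pax6 had close followers among other genes. Zic1, a zinc finger transcription factor, was the most like it (r = 0.985 over 10 libraries and 0.983 without the 2 farthest), and Cobl and Ism2 followed (0.980 and 0.966). Zic1 stood at 18.2 CPM in the left eye of animal 66 and at 3.63 CPM in its right eye, again the highest and the lowest. Optc, which encodes opticin of the ciliary epithelium, had an r of 0.89 with Pax6 and stood at 52.1 and 8.97 CPM in the same eyes. The surface epithelium list, whose tissue also makes Pax6, summed to 911 and 146 CPM in them, and its keratin Krt15 stood at 166 and 31.6 CPM. All 12 of its markers were lower in the right eye, at a median log2 difference of -1.03, with 0 called by limma and 2 at an unadjusted p under 0.05. The median r of Pax6 was 0.38 with the 5 ciliary and iris markers, 0.46 with the surface epithelium markers and 0.00 with the lens markers. It was 0.47 with the 8 Müller glia markers tested and 0.39 with the 8 tested for amacrine, horizontal and ganglion cells, all 8 of the latter positive. Over all genes tested r with Pax6 was positive for 7892 of 15413. Skeletal muscle markers had a median r of -0.50 with Pax6, negative for 8 of 8. The parts of these tissues in the Pax6 level were not tested. The antisense gene Pax6os1 overlaps Pax6 by 1431 bases and was at 0.864 ± 0.400 CPM over the 10 libraries.

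Rax and Six6, which encode retinal homeodomain proteins of eye field and hypothalamus, followed each other closely. Rax (chromosome 18, 65928277 to 65939787, minus strand) stood at 5.57, 7.07, 8.72, 9.27 and 4.68 CPM in the left eyes of animals 61, 64, 65, 66 and 68. In right eyes it stood at 4.18, 10.4, 4.93, 2.31 and 7.08 CPM. The right eye of animal 64 was the highest and the right eye of animal 66 the lowest. The mean was 7.06 ± 1.97 CPM on the left against 5.77 ± 3.08 CPM on the right (SD, n = 5 a side), a log2 difference of -0.40 ± 0.35 (SE), lower in the right eye in 3 of 5 animals (limma adjusted p = 0.9998). Without animal 66 the Rax difference was -0.0202, and without animal 68 it was -0.64.

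Six6 (chromosome 12, 72939892 to 72944899, plus strand) had levels of 2.20, 2.37, 3.27, 3.004 and 1.25 CPM in left eyes in the same order of animals. In right eyes they were 1.32, 2.94, 1.63, 0.628 and 3.03 CPM. The right eye of animal 66 was again the lowest, and the sides overlapped. Six6 averaged 2.42 ± 0.787 CPM on the left against 1.91 ± 1.05 CPM on the right (SD, n = 5 a side), with a log2 difference of -0.41 ± 0.40 (SE, limma adjusted p = 0.9998). It was -0.0357 without animal 66 and -0.80 without animal 68. Six6 varied 5.21-fold and Rax 4.49-fold, while their ratio varied 1.60-fold, and their r was 0.96 over 10 libraries and 0.91 without the 2 farthest. For both genes the sign of right minus left was the same within each of the 5 animals.

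Both were positive with rod markers and negative with RPE markers, though not with these alone. With Pax6 the r was 0.87 for Rax and 0.81 for Six6. Surface epithelium markers had a median r of 0.44 with Rax and 0.36 with Six6, positive for 11 and 10 of 12. Endothelial markers had medians of -0.64 and -0.70, negative for 7 of 7 with each. The median r with 14 rod markers was 0.68 for Rax and 0.76 for Six6, positive for 14 of 14 with each. With the 9 RPE markers it was -0.79 and -0.71, negative for 9 of 9. Over all genes tested r was positive for 6762 of 15413 with Rax and for 6569 with Six6. The genes most like Rax were Meis1, Xkr4 and Slit2 (r = 0.978, 0.976 and 0.974), and those most like Six6 were Epha5, Slit2 and Sv2a (0.982, 0.977 and 0.975, over 10 libraries). Slit2, a secreted guidance cue, was in both sets. The gene 4930447C04Rik overlaps the start of Six6 by 883 bases on the opposite strand and was at 1.55 to 5.13 CPM, so Six6 is uncertain to that extent, as is Rax, which Raxos1 overlaps by 2250 bases (0.286 to 1.47 CPM).

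Six3, the paralog of Six6 that represses Wnt signals in the forebrain and eye, did not share this pattern. It stood at 7.61, 5.74, 5.72, 6.91 and 5.50 CPM in the left eyes of animals 61, 64, 65, 66 and 68. In right eyes it stood at 6.68, 5.88, 6.67, 5.94 and 4.76 CPM. Both eyes of animal 68 were the lowest, and the sides overlapped. Six3 (chromosome 17, 85613608 to 85629302, plus strand) averaged 6.30 ± 0.918 CPM on the left against 5.99 ± 0.783 CPM on the right (SD, n = 5 a side), a log2 difference of -0.07 ± 0.09 (SE, limma adjusted p = 0.9998), and between -0.14 and -0.0333 with 1 animal left out. It varied 1.60-fold, and its r with Six6 was -0.11 over 10 libraries. In the right eye of animal 68, where rod markers peaked, Six6 was at its second highest and Six3 at its lowest level. The genes most like Six3 were Mfsd9, Tmco4 and Cbr3 (r = 0.966, 0.961 and 0.948). The antisense transcript Six3os1, which overlaps Six3 by 4791 bases, was more abundant per kilobase than Six3, at 4.79 ± 0.549 against 1.13 ± 0.151 CPM per kilobase (SD, n = 10). If reads were counted without strand, part of the Six3 level could belong to it. The r of the pair was 0.65 over 10 libraries and -0.04 without animal 68.

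Lhx2, a LIM homeodomain factor of the optic vesicle that persists in Müller glia (chromosome 2, 38339281 to 38369733, plus strand), varied 1.56-fold across libraries. It stood at 7.30, 9.35, 8.49, 9.03 and 5.99 CPM in the left eyes of animals 61, 64, 65, 66 and 68. In right eyes it stood at 6.47, 8.57, 8.62, 6.68 and 6.32 CPM. Both eyes of animals 64 and 65 were among the 5 highest libraries and both eyes of animal 68 were the 2 lowest. The mean was 8.03 ± 1.38 CPM on the left against 7.33 ± 1.16 CPM on the right (SD, n = 5 a side), a log2 difference of -0.12 ± 0.09 (SE, limma adjusted p = 0.9998), which was -0.0487 without animal 66. Its coefficient of variation of 16.4% exceeded that of 82.0% of 3386 genes within 1.5-fold of its level. Its closest member was Pax6, with an r of 0.74, and 0.85 without animal 66. A predicted locus had the highest likeness to Lhx2 (r = 0.945), and among genes with established symbols Dpy19l3, Ppargc1b and Hmga1 led (r = 0.935, 0.921 and 0.917).

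Crx, the cone-rod homeobox factor that drives photoreceptor genes, was the most variable member. In left eyes it stood at 6.04, 8.77, 24.5, 10.3 and 6.94 CPM in animals 61, 64, 65, 66 and 68. On the right it was at 4.07, 15.0, 7.66, 3.97 and 47.3 CPM. The right eye of animal 68 and the left eye of animal 65 stood apart from the other libraries of their side. Crx (chromosome 7, 15865947 to 15879968, minus strand) averaged 11.3 ± 7.54 CPM on the left against 15.6 ± 18.3 CPM on the right (SD, n = 5 a side). The log2 difference was -0.01 ± 0.60 (SE), with the right eye higher in 2 of 5 animals (limma adjusted p = 0.9998). It turned to 0.40 without animal 65 and to -0.69 without animal 68, so the estimate had no stable sign. Over the 10 libraries its coefficient of variation was 99.5%, larger than that of 99.7% of 3429 genes within 1.5-fold of its level.

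Crx kept a nearly fixed ratio to rod genes. It varied 11.9-fold, but its ratio to the summed rod list varied 1.33-fold, and its ratio to Nrl, the leucine zipper factor that sets rod fate, was 0.909 ± 0.0959 (SD over 10 libraries). Nrl stood at 58.4 CPM in the right eye of animal 68, where Crx reached 47.3 CPM. In the right eye of animal 66, where Crx was lowest, Nrl was at 4.79 CPM. The genes most like Crx were Rp1, Pdc and Rgs9bp, all of photoreceptors (r = 0.998, 0.996 and 0.996 over 10 libraries), and the median r was 0.99 with the 14 rod markers and 0.89 with the 8 cone markers tested. Leaving out the 2 libraries farthest from the median gave an r of 0.98 with Nrl, against 0.99 over all 10. The whole rod list thus moved with Crx, and its part in the Crx level was not tested.

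**Figure D4:**
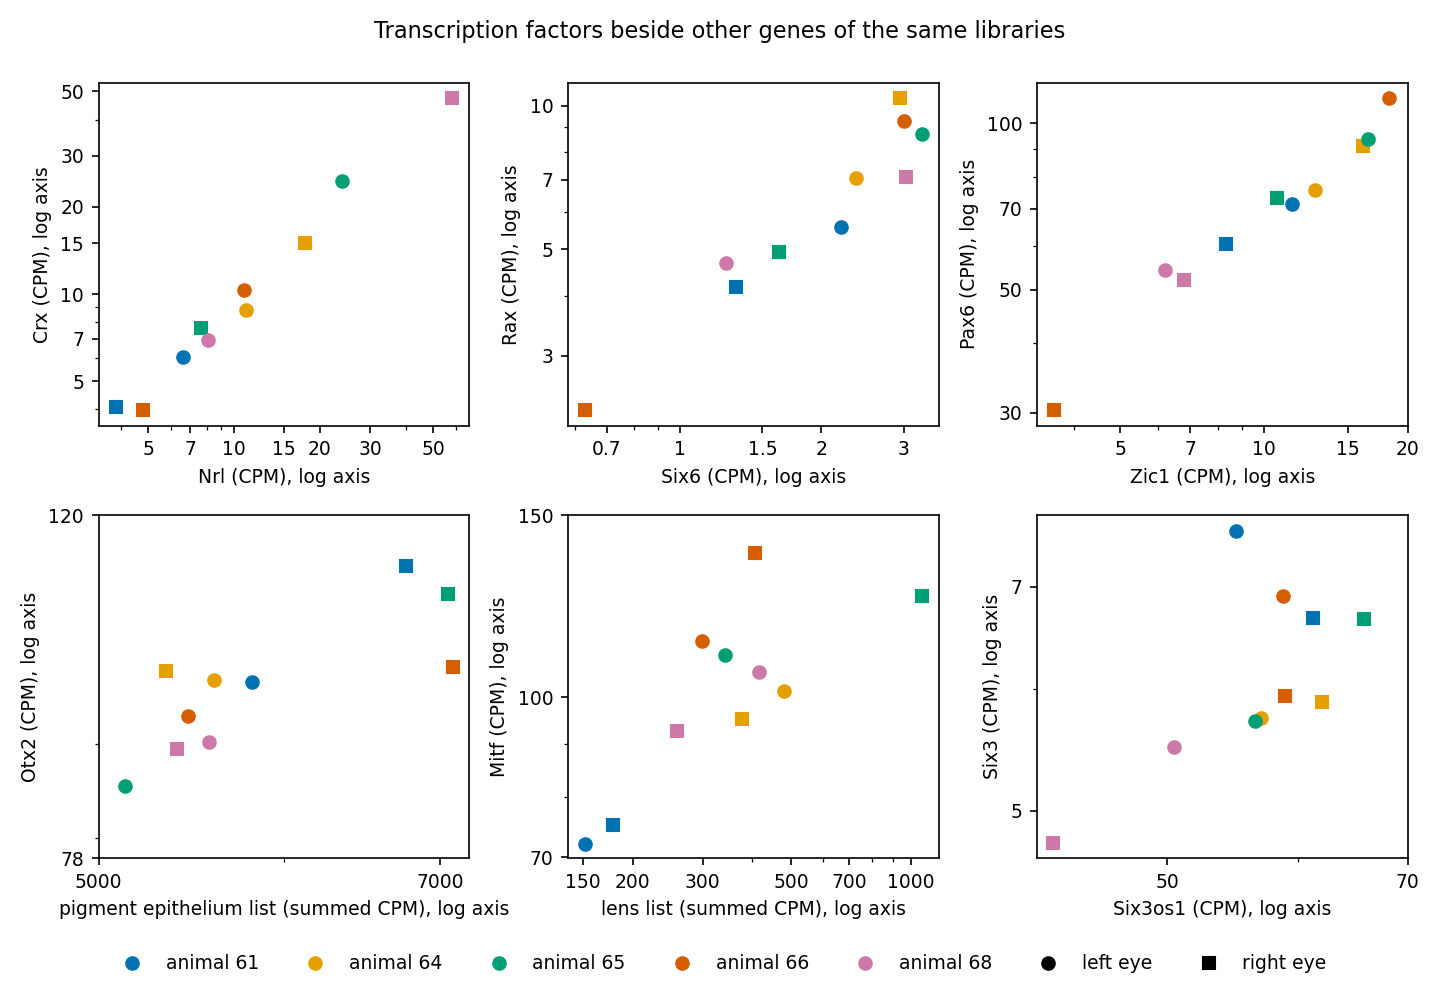
Each panel plots a transcription factor (vertical) against another gene or a summed marker list (horizontal) in the 10 libraries, in CPM on log axes; colours are animals, circles left eyes and squares right eyes. Crx lies close to a line with Nrl, Rax with Six6 and Pax6 with Zic1, whereas Six3 against Six3os1 and Mitf against the lens list spread more widely.

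The likeness of members to marker lists fell into separate patterns. Otx2 and Six3 were positive with RPE markers and negative with rod markers, whereas Rax, Six6 and Crx were the reverse. For Six3 the median r with RPE markers was only 0.29, against 0.17 over all genes tested. It was higher with melanocyte (0.50) and endothelial markers (0.49), so the likeness of Six3 was not particular to RPE. Pax6 was negative with all 9 RPE markers and positive with 13 of 14 rod markers, at a median r of 0.31. Lhx2 had its highest median with the ciliary and iris markers (0.55, positive for 5 of 5), and Tfec had no list with a median beyond 0.34 in size. Over all genes tested r was positive for 9849 of 15413 with Six3, 8056 with Lhx2 and 5495 with Crx. Some lists share genes, such as Rlbp1, which Müller glia and RPE both express, and 10 libraries with shared sources give weak r little meaning. An r above 0.9 was reached by 4 of 15413 genes with Mitf, 10 with Lhx2 and 15 each with Otx2 and Six3. It was reached by 49 with Six6, 74 with Pax6, 76 with Rax and 288 with Crx. With so many genes searched, a few can reach such an r without a shared source, so short lists of most like genes carry little weight.

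**Figure D5:**
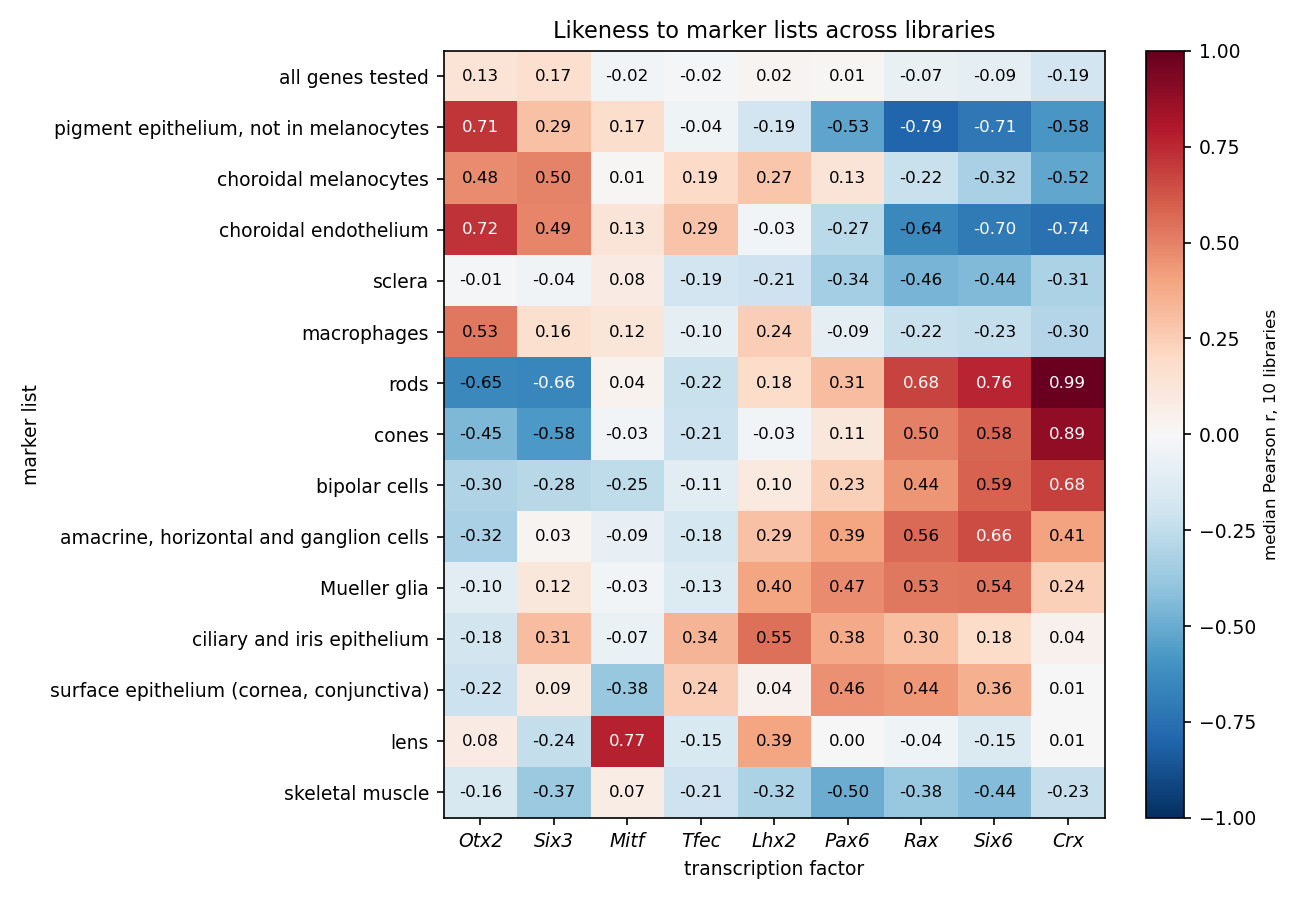
Median Pearson r over 10 libraries between each transcription factor (columns) and the genes of each marker list that averaged 1 CPM or more (rows), on log2(CPM + pseudocount); red is positive and blue negative. The strongest cell is Crx with rods (0.99), and the RPE row runs from 0.71 for Otx2 to -0.79 for Rax.

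Other transcription factors of eye development gave the setting for these members. Of 33 such genes 24 had a mean of at least 1 CPM, and 7 of them were higher and 17 lower in the right eye, with a median log2 difference of -0.07 against -0.01 over all genes tested. None was called by limma (0% of all genes tested were), and 2 had an unadjusted p under 0.05. The most abundant in CPM were Nr2f2, a nuclear receptor (31.4 ± 2.92 CPM, n = 10), and Eya1, a partner of Six3 and its relatives (26.2 ± 3.16 CPM, n = 10). Otx1, the paralog of Otx2 that the ciliary and iris list also holds, was one of those with an unadjusted p under 0.05, and Nr2f2 the other. Otx1 stood at 3.62, 4.33, 4.47, 5.32 and 2.28 CPM in left eyes and at 2.61, 3.73, 2.56, 2.10 and 1.77 CPM in right eyes of animals 61, 64, 65, 66 and 68. It was lower in the right eye in 5 of 5 animals, with a log2 difference of -0.59 ± 0.16 (SE, limma adjusted p = 0.9998), and its r with Pax6 was 0.83 over 10 libraries. Sox9, which works with Otx2 and Mitf on RPE genes, was at 10.9 ± 1.53 CPM on the left against 10.4 ± 2.81 CPM on the right (SD, n = 5 a side). Of 26 photoreceptor and inner retina factors 14 were tested, 5 higher and 9 lower in the right eye with a median of -0.01, and none was called. Their most abundant members were Mef2c (51.5 ± 7.87 CPM) and Rorb (38.8 ± 13.4 CPM, SD, n = 10).

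Textbook target genes of Otx2 and Mitf were also measured. In a list of 22 RPE and pigment genes 21 were tested, of which 15 were higher and 6 lower in the right eye, with a median log2 difference of 0.07 and none called by limma. Rgr, an opsin of the RPE, led the list at 1964 ± 289 CPM over the 10 libraries, followed by Ttr, a retinol carrier, at 1571 ± 200 CPM. Best1, a chloride channel of the RPE, was the member that missed the filter, at 0.255 to 0.762 CPM.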

How the data were processed

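RNA of 10 libraries was sequenced after rRNA removal. The authors deposited 1 table of normalized counts, which behave as CPM (counts per gene scaled to the library) plus 1e-04, and this constant was removed. STAR, Partek and GRCm38 (mm10) are named per the submitters' processing notes, with versions, annotation release and strand use not given in the sources used here. Steps between low values implied 66.8 to 94.0 M reads per library. From 89.1% to 90.1% of low values were whole multiples of a step (tolerance 0.05), so reads were not recovered for every gene and no count test was run. The floor of 3 reads was 0.0319 to 0.0449 CPM, for counting error only. The genes in the table held 42.7% to 47.1% of each library.

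The 15414 genes that averaged 1 CPM or more were tested as log2(CPM + 0.230) with limma 3.58.1 in R 4.3.3 (intensity trend, animal and eye side as terms, 4 residual degrees of freedom, Benjamini-Hochberg adjustment). The scale understates changes of low genes. The block follows from the animal numbers in the titles, which pair fellow eyes. Deviations of fellow eyes correlated over 0.1 in 2 of 5 animals. Exon lengths are unions of GENCODE M21 exons, whose starts equalled 99.3% of those deposited. Ends are printed as the deposited stop minus 1. The script was tested on simulated data. Figures used matplotlib 3.10.9. Named genes were the 9 members, 2 most abundant genes per list, 3 genes (no predicted loci) most like each member with a mean of at least 1 CPM, paralogs and reference genes of tissues. Otx1, Kit, Sox10, Best1 and the overlapping genes were chosen after their values were seen. Members and lists were chosen with earlier results of these data known. Some reference genes of the rule are not reported here.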

Additional observations from a re-analysis of the deposited data

Results flagged for a closer look

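Crx was the gene with libraries standing apart from the other 4 of their side. In the left eye of animal 65 it was at 24.48 CPM, with a gap to the next library of 0.769 of the range of that side. In the right eye of animal 68 it was at 47.33 CPM, with a gap of 0.746 of the range. Both exceed the limit of 0.71 for 5 samples, which chance passes in about 1 of 20 groups. The limit was applied on the CPM scale to all 9 members on each side, so a gap past it somewhere is not rare. Nrl and the summed rod markers were highest on each side in the same libraries.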

How the results depend on the processing

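No gene and no member was called by limma in any of 26 alternatives, and the smallest adjusted p of a member was 0.924. This covers no replicate block (0 genes called, as with the block), other pseudocounts, filters, scalings, moderation, weights and a rod covariate. It also covers each animal or single library left out. A lone eye carries no weight in a paired fit, so leaving out 1 library gave the estimate without that animal. Otx2 was higher in the right eye in 26 of 26 alternatives (0.08 to 0.18). The Mitf difference lay between -0.00766 and 0.11 with animals or libraries left out, negative without animal 66, and that of Tfec between -0.19 and 0.12, positive without animal 65, and 0.00695 with array weights. Crx had the same sign in 13 of 26 alternatives. It ran from -0.69 to 0.40 with animals left out, and was 0.0199 with a pseudocount of 1 CPM, 0.00878 after median-of-ratios scaling and 0.0243 after quantile normalization. A fit with rod and ciliary list means in place of the animal was added after the data were seen. There the differences turned to 0.14 for Tfec, 0.20 for Pax6, 0.13 for Lhx2, 0.18 for Rax, 0.0623 for Six3, 0.0578 for Six6 and 0.0135 for Crx, none of them called. Tfec could not be fitted with a filter of 1 or 5 CPM, nor Six6 with 5 CPM.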
